A study of Mus musculus with 18 samples.

Results

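The ventral tegmental area (VTA) was compared with the nucleus accumbens (NAc) in mice that had never been defeated, over all probes of a one-colour array. The 3 VTA and the 3 NAc pools labelled as non-defeated controls were used, which are 6 of the 18 arrays of the series. Every control pool came from 4 male C57BL/6J mice aged 10.5 weeks, and the labels name no transgene or drug for them. The other 12 arrays carried the same structures from defeated mice of 2 classes, susceptible and unsusceptible, that differ in social avoidance, with 3 pools for each class and structure. The purpose stated for the series was to compare each class with controls within a structure, so the regional difference described here was not the question of the original design.

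The VTA is the midbrain area whose dopamine neurons project to the NAc, and it also holds GABA and glutamate neurons. The NAc, in the ventral striatum, consists mostly of GABAergic medium spiny neurons. These carry either the D1 dopamine receptor with the peptides dynorphin and substance P, or the D2 receptor with enkephalin, and they read dopamine through a cAMP cascade. Both structures belong to the circuit through which social stress and reward alter behaviour.

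The levels given are log2 intensities after quantile normalization, and a difference is VTA minus NAc on that scale, with the standard error of a limma model fitted to all 18 arrays. A gene was called when its two-sided limma p, adjusted by the Benjamini-Hochberg method over all probes, was under 0.05. Every p measured the spread between pools and not between animals. A gene is represented by its brightest probe. A probe was above background when it exceeded, on all 3 pools of a structure, the 95th percentile of 1155 olfactory and vomeronasal receptor probes, a threshold with a median of 7.54 over arrays. Where the lower structure was not above background, the fold is given as a lower bound against that threshold.

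The first principal component held 64.4% of the variance and separated the structures. Median scanner intensities of the 6 control arrays ran from 159.7 to 191.2, and upper quartiles from 336.2 to 386 on 5 of them and 287.3 on NAc control pool 3. Correlations between pools of one structure were 0.993 to 0.994 in VTA and 0.988 to 0.991 in NAc, and those between the structures were 0.959 to 0.970. VTA pools had 17580 probes above background and NAc pools 15825. On single arrays, the probes above that array's threshold numbered 19361 to 19634 in VTA and 17461, 18983 and 17362 in NAc pools 1 to 3. On arrays of defeated mice they numbered 17889 to 19773 in VTA and 18437 to 20839 in NAc.

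The 6 genes given to check the labels separated the structures in every pool. Slc6a3, the dopamine transporter, measured 14.08, 14.12 and 14.39 in VTA pools 1 to 3 and 7.43, 7.30 and 7.24 in NAc pools 1 to 3. Crym, a thyroid hormone binding protein of striatal neurons, measured 8.71, 7.69 and 7.86 in VTA and 14.79, 14.47 and 14.36 in NAc. No pool of either structure came near the other for these genes. Th, Slc18a2, Drd1 and Ppp1r1b, described below, separated the structures in the same way, so that the markers matched the label of all 6 pools. In tissue pools, fewer cells of a type and less RNA per cell cannot be told apart.

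Of the 44505 probes, 8643 (19.4%) were called, 4652 higher (10.5%) and 3991 lower (8.97%) in VTA. Counted by gene, 5080 of 17274 (29.4%) were called, 2810 higher (16.3%) and 2270 lower (13.1%). The structures' pools did not overlap for 41.4% of all genes, and for 4953 of the 5080 called genes. The median difference over all genes was -0.0039, and the called genes had a median absolute difference of 0.52. Large differences were more often towards NAc: 70 genes were at least 4-fold higher in VTA and 118 were at least 4-fold lower, while at 2-fold the counts were 432 and 430. Against a difference of 2-fold (limma's treat), 182 probes were higher and 292 lower. Median scaling in place of quantile normalization called 5087 probes, 75.6% of them higher in VTA, against 53.8% here, so the balance of the 2 directions depended on the scaling.

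**Figure D1:**
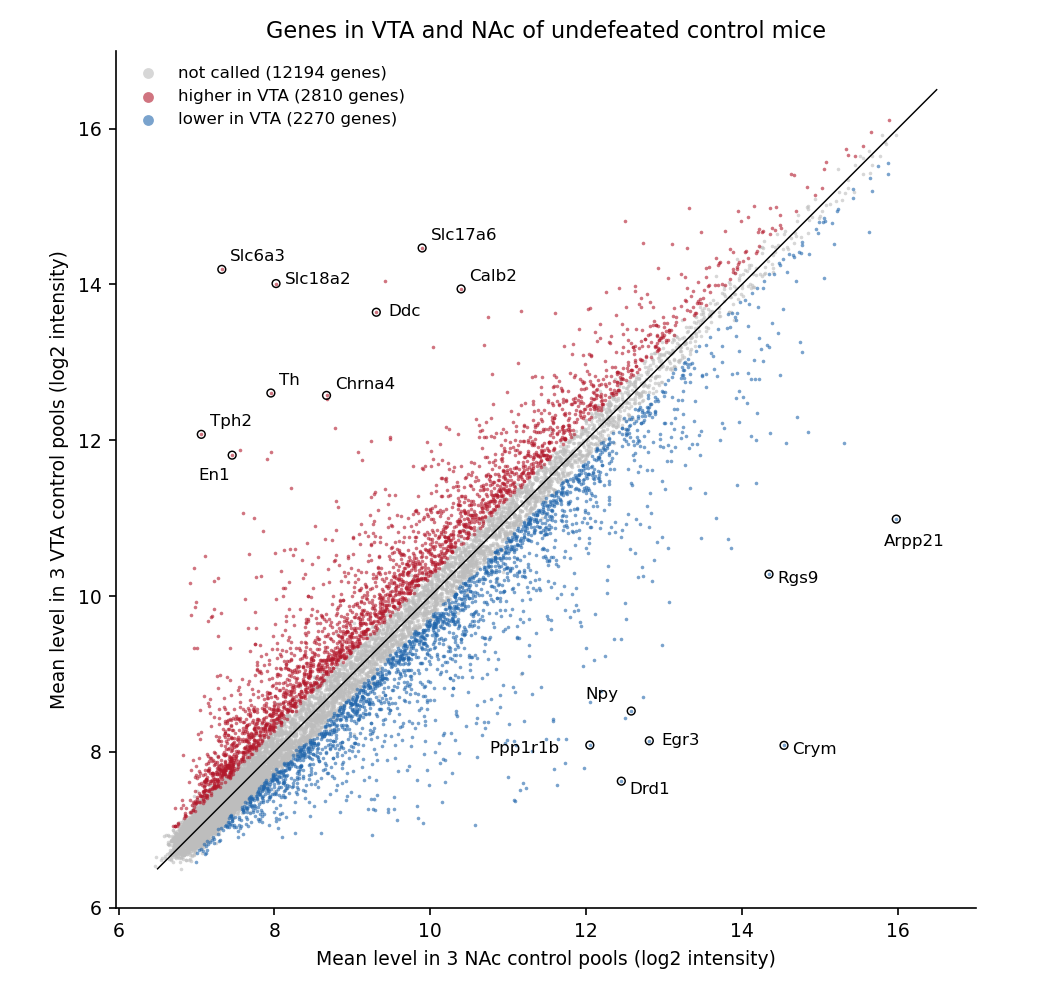
Mean level of each of 17274 genes in the 3 NAc control pools (horizontal) and the 3 VTA control pools (vertical), in log2 intensity, with called genes in red (2810 higher in VTA) and blue (2270 lower) and equality as a line. Dopamine neuron genes such as Slc6a3 and Th lie far above the line and medium spiny neuron genes such as Crym and Drd1 far below it.

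Genes of dopamine synthesis, packaging and clearance had the largest median difference of all lists. Of 16 measured members, 12 were higher in VTA and 0 lower, with a median difference of 2.84. Slc6a3, which returns dopamine to the terminal, differed by 6.87 ± 0.42 (limma adjusted p = 4.48e-12), at least 96.5-fold higher in VTA. Slc18a2, the vesicular monoamine transporter, measured 13.65, 14.23 and 14.15 in VTA and 7.95, 7.86 and 8.26 in NAc, a difference of 5.99 ± 0.43 or 63.6-fold (limma adjusted p = 1.05e-10). Th, the rate-limiting enzyme of dopamine synthesis, measured 12.49, 12.54 and 12.79 in VTA and 8.24, 7.99 and 7.63 in NAc. Its difference was 4.65 ± 0.44 (limma adjusted p = 1.22e-08), at least 25.1-fold. All VTA pools were high and all NAc pools low for each of these genes, and no pair of pools overlapped.

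Ddc, which makes dopamine from L-DOPA, measured 13.44, 13.70 and 13.79 in VTA and 9.28, 9.50 and 9.14 in NAc, 20.2-fold higher (limma adjusted p = 3.72e-10). Gch1, which starts the synthesis of the tetrahydrobiopterin cofactor of Th, was at least 10.8-fold higher in VTA. The cofactor genes Qdpr (1.01) and Spr (0.36) were also higher, as was Maob (0.45), a monoamine oxidase whose pools overlapped between the structures. Aldh1a1, an aldehyde dehydrogenase of ventral midbrain dopamine neurons, was 24.7-fold and Sncg, gamma-synuclein, 14.9-fold higher in VTA. The 4 members not called were Maoa, a monoamine oxidase, Pts, of cofactor synthesis, Dbh, of noradrenaline synthesis, and Kcnj6, with differences between -0.14 and -0.04. Kcnj6 is a potassium channel gene and not of synthesis, packaging or clearance, but it was counted in the list. Of the 16 measured members of the list, 13 were above background in at least 1 structure, with a median of 3.46. For a probe below background, a difference near 0 does not show equal levels.

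**Figure D2:**
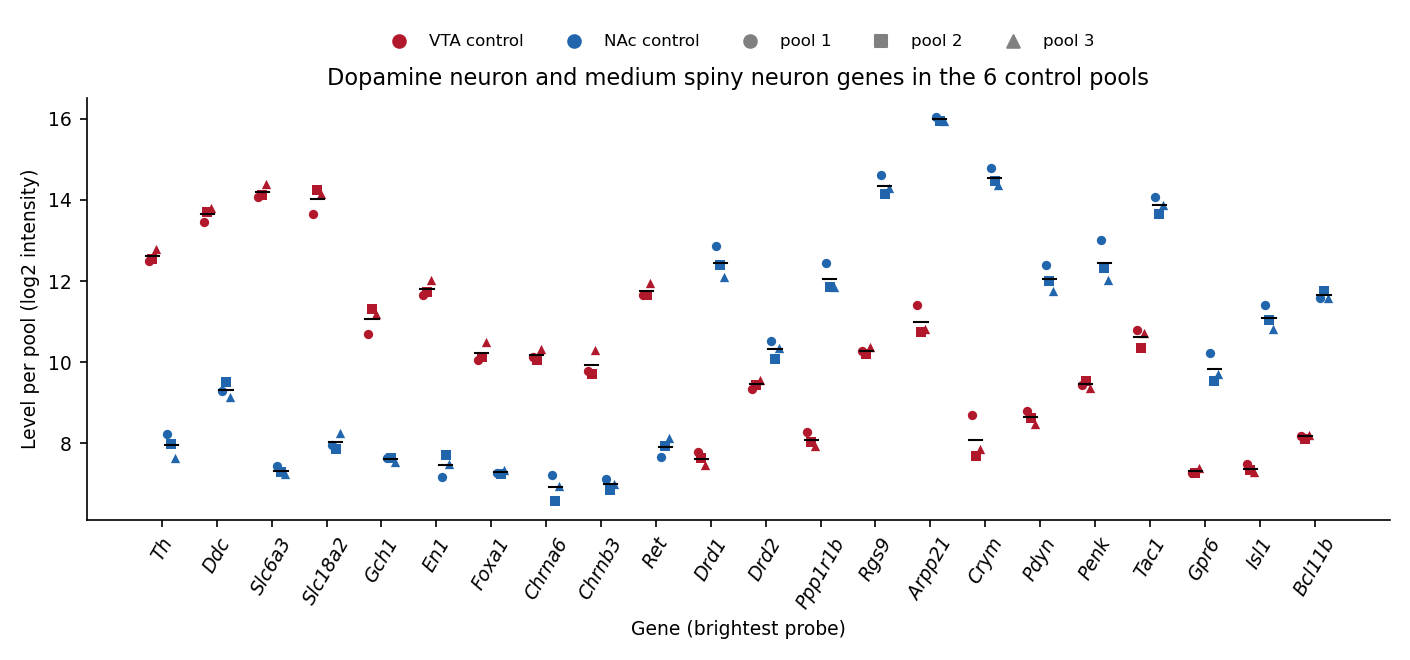
Level per pool (log2 intensity) of dopamine neuron and medium spiny neuron genes in the 3 VTA control pools (red) and the 3 NAc control pools (blue), with the mean as a bar and the pool number as the marker shape. Genes from Th to Ret are high in all VTA pools, genes from Drd1 to Bcl11b are high in all NAc pools, and Drd2 shows the smallest gap.

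Transcription factors that specify and maintain midbrain dopamine neurons were higher in VTA for 9 of 11 measured members, with 0 lower and a median of 1.11. En1, a homeobox factor of the midbrain, measured 11.66, 11.73 and 12.03 in VTA and 7.16, 7.72 and 7.49 in NAc, a difference of 4.35 ± 0.45 (limma adjusted p = 4.38e-08), at least 17.7-fold. Its relative En2 was at least 9.25-fold, the forkhead factor Foxa1 at least 6.20-fold and Otx2, which marks VTA dopamine neurons within the midbrain, at least 2.32-fold higher. The same 3 VTA pools were above every NAc pool for each of these factors. Pitx3, a factor needed by dopamine neurons, was dim, at 7.77, 7.73 and 7.99 in VTA and 7.35, 7.33 and 7.27 in NAc, and was called with a difference of 0.51 ± 0.13 (limma adjusted p = 0.00465). Nr4a2, the orphan nuclear receptor that drives Th, differed by 1.33 and was lower in NAc pool 1 (8.13) than in the other NAc pools (9.18 and 9.27). Sox6 (-0.14) and Bnc2 (0.22) were not called.

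Other receptors and signalling genes of dopamine neurons lay among the largest differences. Ret, the receptor through which GDNF acts on these neurons, measured 11.65, 11.67 and 11.95 in VTA and 7.67, 7.92 and 8.13 in NAc, 14.4-fold higher (limma adjusted p = 1.02e-12). The nicotinic acetylcholine receptor subunit Chrna4 was 15-fold higher, Chrna6 at least 5.92-fold and Chrnb3 at least 5.02-fold. These subunits form the nicotinic receptors of dopamine neurons. Of 24 measured acetylcholine and serotonin receptors, 9 were higher and 4 lower in VTA, and the median of the list was 0.13. Chrna3 (1.43) was a further nicotinic subunit among the higher members, and the lower ones were the muscarinic receptor Chrm1, not above background in either structure, with the serotonin receptors Htr1d (-0.70), Htr1f (-0.66) and Htr6 (-0.32). Htr1d lost its call with median scaling (limma adjusted p = 0.236), without VTA pool 2 (0.0618) or without NAc pool 1 (0.0709), and Chrm1 lost it without VTA pool 1 (0.141) or without NAc pool 1 (0.0875). With median scaling 9 members were higher and 2 lower.

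The medium spiny neuron signalling genes all lay on the NAc side. All 18 measured members were lower in VTA, with a median difference of -2.58 and a range from -6.46 to -1.27. Crym differed by -6.46 ± 0.21, 87.8-fold lower in VTA (limma adjusted p = 3.39e-17). Arpp21, a calmodulin-regulating phosphoprotein, measured 11.40, 10.75 and 10.82 in VTA and 16.05, 15.95 and 15.95 in NAc, 31.8-fold lower. Ppp1r1b, the DARPP-32 protein that inhibits protein phosphatase 1 under dopamine control, measured 8.28, 8.05 and 7.94 in VTA and 12.44, 11.85 and 11.86 in NAc, 15.6-fold lower (limma adjusted p = 1.12e-15). Every VTA pool was below every NAc pool for these genes.

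The list covers most of the cascade that couples dopamine receptors to cAMP. Rgs9, which speeds the shut-off of G proteins, was 16.8-fold lower in VTA, at 10.26, 10.21 and 10.37 against 14.61, 14.14 and 14.29. Rgs14 was at least 13.8-fold lower. The G protein subunits Gng7 (-3.29) and Gnal (-1.76), the adenylyl cyclase Adcy5 (-2.41) and the phosphodiesterases Pde10a (-2.66), Pde1b (-2.27) and Pde7b (-1.27) were all lower in VTA. The phosphatase Ptpn5, known as STEP, differed by -1.56. These members of the list beyond Rgs9 and Rgs14 were picked for their roles after their values were seen.

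Markers of the 2 output pathways of the NAc were lower in VTA for 7 of 12 measured members, with 0 higher and a median of -1.69. Drd1, the D1 receptor, measured 7.78, 7.63 and 7.47 in VTA and 12.86, 12.39 and 12.11 in NAc, a difference of -4.83 ± 0.17 (limma adjusted p = 1.47e-16), at least 28.0-fold lower. Pdyn, which encodes dynorphin, was 10.6-fold lower and Tac1, which encodes substance P, differed by -3.25. On the D2 side, Penk, which encodes enkephalin, measured 9.44, 9.55 and 9.37 in VTA and 13.01, 12.31 and 12.03 in NAc, 8.01-fold lower. Gpr6, an orphan receptor of the indirect pathway, was at least 4.96-fold lower. In each of these genes NAc pool 1 was the highest pool.

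For Drd2, the D2 receptor, the pools of the structures lay closer together. It measured 9.35, 9.44 and 9.57 in VTA and 10.53, 10.08 and 10.34 in NAc, and it was above background in both structures. The difference was -0.86 ± 0.22 (limma adjusted p = 0.00534), 1.82-fold lower in VTA. The call was lost with median scaling (limma adjusted p = 0.122) and with background subtraction (0.115). D2 receptors are known both in medium spiny neurons and as autoreceptors of dopamine neurons. Drd3 (0.03), Chrm4 (-0.20), Grik3 (-0.11), Eya1 (-0.12) and Sfxn1 (-0.09) were not called. Of the 12 measured members of the output pathway list, only 8 were above background in at least 1 structure, with a median of -2.96. For a probe below background, a difference near 0 does not show equal levels.

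Transcription factors of the striatum and telencephalon were lower in VTA for 11 of 18 measured members and higher for 1, with a median of -0.69. Isl1, a LIM homeobox factor of direct pathway neurons, measured 7.50, 7.35 and 7.28 in VTA and 11.42, 11.03 and 10.82 in NAc, at least 11.9-fold lower (limma adjusted p = 2.77e-09). Bcl11b, also called CTIP2, measured 8.18, 8.11 and 8.21 in VTA and 11.59, 11.76 and 11.59 in NAc, 11.1-fold lower. Rarb and Rxrg, retinoid receptors of the striatum, were 8.91-fold and 7.12-fold lower, and Meis2 was 8.52-fold lower. Pools of the structures did not overlap for these 5 factors. Ebf1 was the member higher in VTA (0.88), although it is known as a factor of developing striatal neurons.

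Regional factors of the midbrain, hindbrain and hypothalamus mirrored this pattern, with 15 of 28 measured members higher in VTA, 0 lower and a median of 0.62. Irx2, an Iroquois homeobox factor, measured 10.10, 10.91 and 10.07 in VTA and 6.92, 7.15 and 6.85 in NAc, at least 6.75-fold higher. Irx3 (2.83), Irx5 (2.62) and Lhx1 (2.55) were higher as well. Gata3 (2.88) and Tal1 (2.41), factors that specify midbrain GABA neurons, were among the higher members and were picked after their values were seen. Zic1 (-0.66) was the member with the lowest difference, and it was not called.

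Every promoter printed here, of genes called in controls, holds a match to the letters searched. Those of Slc6a3, En1, Drd1 and Rgs9, genes with larger differences than Gpr6 or Isl1, held none and are not printed. Promoters were searched because Th and other monoamine genes are known targets of the cAMP response element and of Nr4a factors. The windows hold 250 bases before and 50 after the start site, from RefSeq on GRCm38.p6, with the matches in capitals. Letters were searched on both strands: TGACGTC, the first letters of the cAMP response element, AAGGTCA, the core of the Nr4a response element, and TAATCC, the letters of Pitx-type homeodomains. A match on the minus strand of the window appears as its reverse complement, and TGACGTC matches on opposite strands can overlap.
Th (chr7:142899946-142900245, minus strand): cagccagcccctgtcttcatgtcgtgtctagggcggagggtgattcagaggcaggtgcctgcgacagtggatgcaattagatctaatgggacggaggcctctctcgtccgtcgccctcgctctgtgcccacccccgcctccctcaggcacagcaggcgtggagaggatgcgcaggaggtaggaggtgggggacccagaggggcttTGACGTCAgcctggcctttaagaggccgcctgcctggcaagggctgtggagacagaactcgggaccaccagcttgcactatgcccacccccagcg
Slc18a2 (chr19:59260628-59260927, plus strand): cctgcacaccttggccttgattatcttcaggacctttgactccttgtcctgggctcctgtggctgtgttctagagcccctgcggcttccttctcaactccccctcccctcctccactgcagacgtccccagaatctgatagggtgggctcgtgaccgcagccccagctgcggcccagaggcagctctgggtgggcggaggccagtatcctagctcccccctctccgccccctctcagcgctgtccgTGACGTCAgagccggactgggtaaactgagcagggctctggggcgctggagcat
Ddc (chr11:11898095-11898394, minus strand): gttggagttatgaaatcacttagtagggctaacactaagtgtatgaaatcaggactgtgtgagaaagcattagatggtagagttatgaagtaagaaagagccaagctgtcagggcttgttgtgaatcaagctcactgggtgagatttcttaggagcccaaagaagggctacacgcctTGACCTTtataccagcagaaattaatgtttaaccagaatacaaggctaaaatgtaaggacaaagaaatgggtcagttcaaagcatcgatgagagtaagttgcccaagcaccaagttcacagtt
Gpr6 (chr10:41072241-41072540, minus strand): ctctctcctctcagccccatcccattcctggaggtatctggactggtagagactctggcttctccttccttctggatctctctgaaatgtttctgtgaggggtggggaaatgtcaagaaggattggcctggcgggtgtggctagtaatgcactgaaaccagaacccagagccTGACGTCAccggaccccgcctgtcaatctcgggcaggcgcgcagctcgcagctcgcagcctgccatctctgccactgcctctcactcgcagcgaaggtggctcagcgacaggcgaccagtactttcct
Isl1 (chr13:116309639-116309938, minus strand): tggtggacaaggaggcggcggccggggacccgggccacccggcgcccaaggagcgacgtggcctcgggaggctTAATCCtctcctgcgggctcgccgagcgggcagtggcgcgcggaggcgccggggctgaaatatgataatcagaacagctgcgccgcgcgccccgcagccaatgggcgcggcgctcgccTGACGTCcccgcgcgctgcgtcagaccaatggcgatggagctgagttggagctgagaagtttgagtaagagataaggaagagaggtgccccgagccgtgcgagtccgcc
Th held TGACGTC on both strands, beginning 45 and 44 bases before the start site. In Slc18a2 the same letters lay on both strands, 4 and 3 bases before the start. One of 2 Ddc promoters held AAGGTCA on the opposite strand, 73 bases before the start. Gpr6, of the NAc side, held TGACGTC on both strands, 78 and 77 bases before the start, and Isl1 held TAATCC at 177 and TGACGTC at 59 bases before it. Among the 18 promoters of the dopamine list, 16.7% held TGACGTC, 11.1% AAGGTCA and 5.56% TAATCC. Of all 32851 promoters in the table the shares were 3.21%, 4.72% and 7.06%, and the contrast was not tested. The 16.7% are 3 promoters, those of Th, Slc18a2 and Kcnj6, and TGACGTC was searched because Th is a known target. Among the holders, Kcnj6 for TGACGTC and Pts for AAGGTCA were not called. Of the 27 promoters of the medium spiny list 0 held either, which says only that these letters were not in these windows, while 11.1% held TAATCC. Many of these windows, some of them overlapping, belonged to Arpp21, which is also among the largest differences towards NAc. Promoters are thus not independent units in these shares. Among the 20 promoters of the dopamine transcription factors 0 held TGACGTC, and AAGGTCA and TAATCC each occurred in 10%. Of the 12 promoters of the output pathway list 8.33% held TGACGTC, 8.33% TAATCC and 0 AAGGTCA. Of the 15 genes with the largest differences towards VTA, only 12 had promoters among those searched. They had 15 promoters, of which 13.3% held TGACGTC, 6.67% AAGGTCA and 0 TAATCC. The 13.3% are again the promoters of Th and Slc18a2. Of the 15 genes towards NAc only 10 had promoters, 19 in all, and the shares were 5.26%, 0 and 5.26%.

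**Figure D3:**
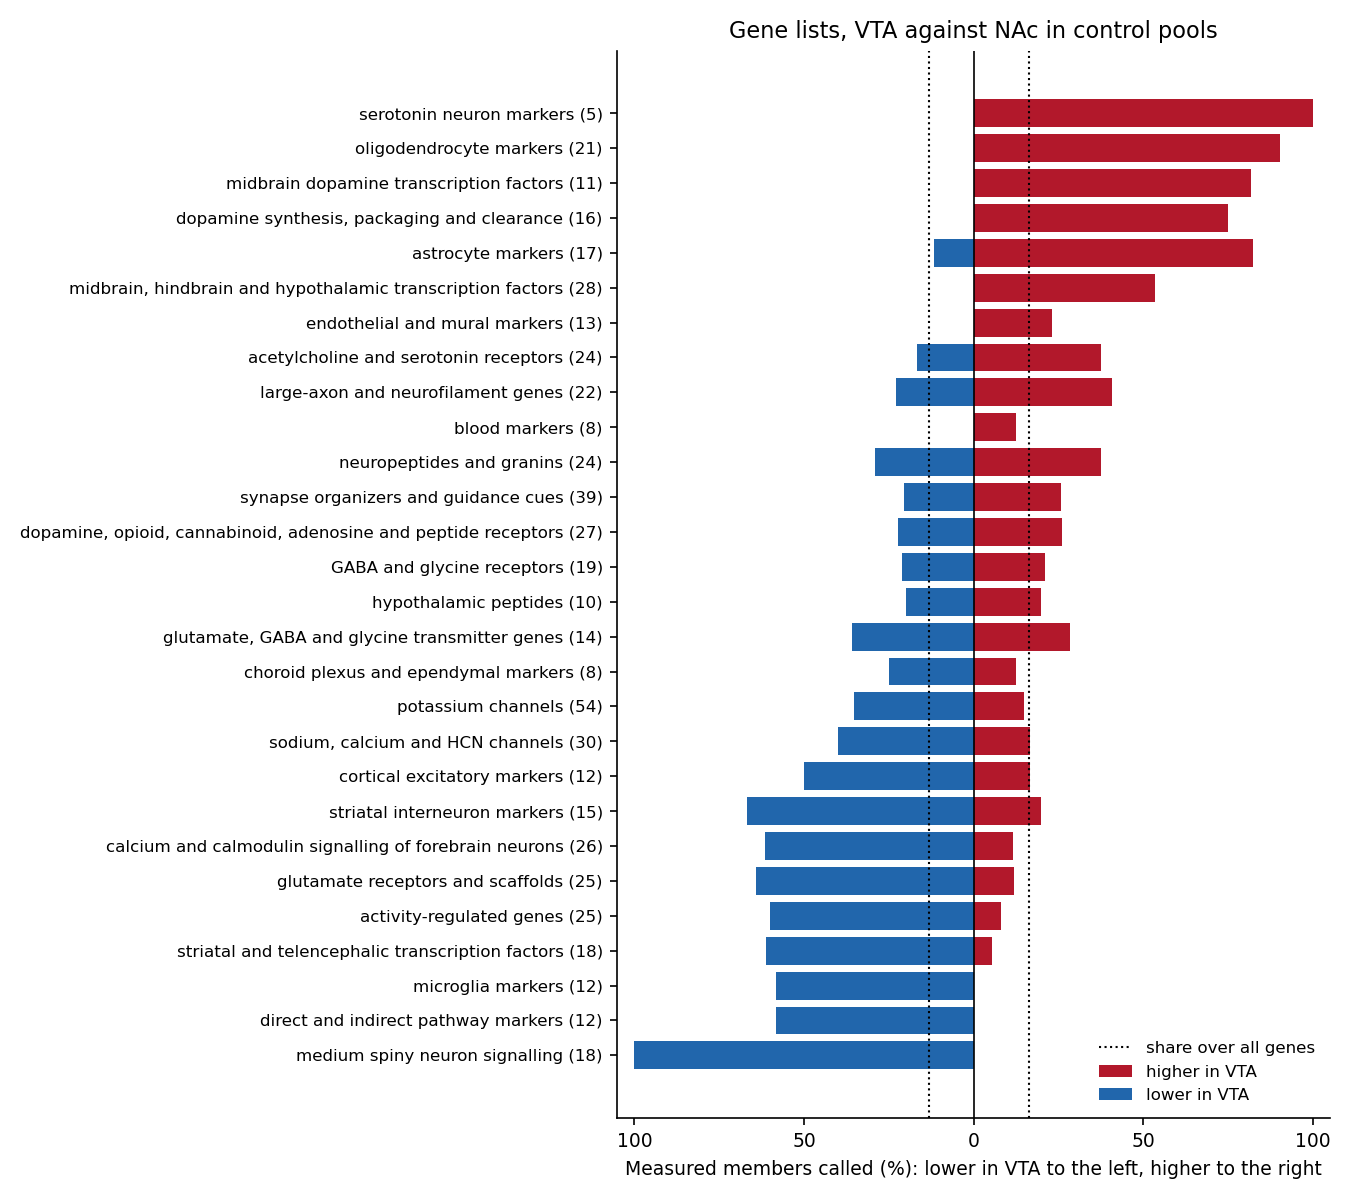
Share of the measured members of each gene list (number in brackets) called higher in VTA (red, to the right) and lower in VTA (blue, to the left) in control pools, in percent, with the shares over all genes as dotted lines (16.3% higher, 13.1% lower). Medium spiny neuron signalling genes are all on the left, and dopamine, serotonin and oligodendrocyte genes have members on the right only.

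Of 14 measured glutamate, GABA and glycine transmitter genes, 4 were higher and 5 lower in VTA, with a median of -0.039. Under median scaling 4 were higher and 2 lower, and the median changed sign to 0.081. Slc17a6, the vesicular glutamate transporter of subcortical neurons, measured 14.54, 14.31 and 14.55 in VTA and 8.97, 10.94 and 9.78 in NAc, 23.8-fold higher (limma adjusted p = 2.71e-10). Slc17a7, the cortical vesicular glutamate transporter, measured 8.15, 8.97 and 7.28 in VTA and 9.68, 11.52 and 12.03 in NAc, at least 7.29-fold lower (limma adjusted p = 7.78e-05). VTA and NAc pools did not overlap for either gene. The NAc pools ranged over 1.97 for Slc17a6 and 2.35 for Slc17a7, against a median range of 0.25 over genes in NAc.

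Slc32a1 and Gad1, genes of GABA neurons, were lower in VTA, for Gad1 by an amount that depended on the probe. Slc32a1, the vesicular GABA transporter, measured 14.04 ± 0.04 in VTA and 14.69 ± 0.17 in NAc (SD, n = 3), 1.57-fold lower. Gad1, which makes GABA, was 1.44-fold lower, and its next 2 probes by brightness gave -0.94 and -1.03 against -0.53 for the brightest. Both calls were lost with median scaling (limma adjusted p = 0.214 and 0.670), and that of Gad1 also without NAc pool 2 (0.0654). Gad2 had a single probe that was not above background in either structure, at 7.27 to 7.70 in VTA and 7.34 to 8.02 in NAc. The transporters Slc6a9 for glycine and Slc6a11 for GABA, both also astrocyte genes, were 4.09-fold and 3.61-fold higher in VTA.

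Interneuron markers of the striatum were lower in VTA for 10 of 15 measured members and higher for 3, with a median of -0.62. Npy measured 8.77, 8.22 and 8.59 in VTA and 12.40, 12.61 and 12.73 in NAc, 16.6-fold lower (limma adjusted p = 4.77e-14). Sst, with which Npy is co-expressed in striatal interneurons, was 2.18-fold lower and well above background in both structures. Slc5a7, the choline transporter of cholinergic neurons, was 3.55-fold lower, and Trh differed by -0.95. Calb2 and Pvalb, calcium-binding proteins of several neuron types, were on the other side: Calb2 was 11.7-fold and Pvalb 7.17-fold higher in VTA. Pvalb varied among NAc pools, at 9.70, 11.10 and 11.41. Nkx2-1 was the third member called higher in VTA, but it was not above background in either structure, and its call was lost without VTA pool 3 (limma adjusted p = 0.101), without NAc pool 1 (0.0655) or with background subtraction (0.502).

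Serotonin neuron genes were higher in VTA pools for all 5 measured members, with a median of 0.82. Tph2, the serotonin-synthesizing enzyme of the brain, measured 11.55, 13.21 and 11.46 in VTA and 7.17, 7.04 and 6.98 in NAc, at least 22.2-fold higher (limma adjusted p = 1.45e-05). Slc6a4, the serotonin transporter, measured 9.68, 11.41 and 9.48 in VTA and 7.38, 6.96 and 7.34 in NAc. Serotonin neurons lie in the raphe nuclei caudal to the VTA. VTA pool 2 was the high pool, and the mean level of the 5 genes there was 10.30 against 9.30 and 9.22 in pools 1 and 3. In the NAc it was 7.54 to 7.63. Htr5b (0.53), a serotonin receptor, lost its call without NAc pool 3 (limma adjusted p = 0.0642). The dopamine list showed no such split of the VTA pools, with mean levels of 12.25, 12.41 and 12.44, and the part of serotonin neurons in the genes that both monoamine types share, Ddc, Slc18a2 and Gch1, was not tested.

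Markers of cortical excitatory neurons were lower in VTA for 6 of 12 measured members and higher for 2, with a median of -0.42. Fezf2 was at least 3.85-fold and Lamp5 4.66-fold lower in VTA, and Neurod2 differed by -1.91. Their mean level was 9.12 in NAc pool 1 against 9.81 and 10.11 in NAc pools 2 and 3, and 8.87 to 9.07 in VTA. NAc pool 1, the lowest in cortical markers, was the highest in medium spiny neuron signalling, at 12.99 against 12.55 and 12.54. Nrn1 and Cux2 were the members higher in VTA. Nrn1 measured 12.91, 12.86 and 12.78 in VTA and 9.44, 11.23 and 11.70 in NAc, a difference of 2.06 that was 1.39 without NAc pool 1, and Cux2 differed by 0.72.

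Genes of calcium and calmodulin signalling in forebrain neurons were lower in VTA for 16 of 26 measured members and higher for 3, with a median of -1.29. Rin1, a Ras effector of forebrain neurons, measured 7.79, 7.71 and 7.87 in VTA and 12.24, 11.78 and 11.88 in NAc, 18.1-fold lower (limma adjusted p = 2.35e-18). Itpka, a kinase of inositol trisphosphate in dendritic spines, was 16.7-fold lower, and the calcium sensor Hpca differed by -2.74. Camk2a (-3.13), Nrgn (-3.02) and Ppp3ca (-1.64), named after their values were seen, lay in the same direction. The 3 higher members were Calb2, Pvalb and Camk2d (0.87). These proteins act in medium spiny and cortical neurons alike, and the part of the cortical markers in this list was not tested.

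Activity-regulated genes were lower in VTA for 15 of 25 measured members and higher for 2, with a median of -0.83. Egr3, a zinc finger factor induced by neuronal activity, measured 8.41, 7.86 and 8.16 in VTA and 12.89, 12.67 and 12.88 in NAc, 25.4-fold lower (limma adjusted p = 1.54e-16). Egr4 was at least 16.4-fold and Egr1 6.66-fold lower, and the scaffold gene Homer1, which is also an immediate early gene, was 5.10-fold lower. Fos and Fosb, the best known members of the class, were not called. Fos measured 8.51, 9.13 and 9.41 in VTA and 8.72, 8.59 and 9.77 in NAc. Fosb measured 12.03 ± 0.01 in VTA and 12.07 ± 0.11 in NAc (SD, n = 3). The pools of the structures overlapped for both. The higher members were Nr4a2 and Bdnf, whose difference of 0.52 (limma adjusted p = 0.00335) was not called with background subtraction (0.086). Bdnf measured 8.23, 8.24 and 8.12 in VTA and 7.46, 7.95 and 7.62 in NAc.

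Neuropeptide genes divided between the structures. Of 24 measured neuropeptides and granins, 9 were higher and 7 lower in VTA, with a median of 0.082. On the NAc side were Npy, Pdyn, Tac1, Penk, Nts (-1.54), Sst and Tac2 (-0.93), which was -0.57 and not called without NAc pool 2 (limma adjusted p = 0.0567). On the VTA side were Ucn, which encodes urocortin, at 10.24, 10.08 and 11.21 against 6.97 to 7.38, at least 7.52-fold higher, and Adcyap1, which encodes PACAP, 6.73-fold higher. Ucn, Adcyap1 and Nts were named after their values were seen. Of 10 measured hypothalamic peptides, 2 were higher, Cartpt (1.54) and Ghrh (0.96), and 2 lower, Trh and Tac2, with a median of 0.060. Calls made up 40% of the hypothalamic list, against 29.4% of all genes. Cartpt lost its call without VTA pool 3 (limma adjusted p = 0.131), NAc pool 2 (0.0542) or NAc pool 3 (0.0766), and with background subtraction (0.137).

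Receptors for dopamine and peptides were called for 13 of 27 measured members, 7 higher and 6 lower in VTA, with a median of -0.077. Hcrtr1, the orexin receptor of type 1, measured 9.69, 9.92 and 9.77 in VTA and 7.31, 7.54 and 7.11 in NAc, at least 4.56-fold higher (limma adjusted p = 5.08e-13). Tacr3, the neurokinin B receptor, was 3.99-fold higher and Oprl1, the nociceptin receptor, differed by 0.74. Besides Drd1 and Drd2, the cholecystokinin receptor Cckbr was lower in VTA (-0.87), a call lost with median scaling (limma adjusted p = 0.188). With that scaling 6 members were higher and 2 lower, so the balance of the directions depended on it.

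Glutamate receptors and their scaffolds were lower in VTA for 16 of 25 measured members and higher for 3, with a median of -0.55. Grin2b, an NMDA receptor subunit, measured 9.25, 8.84 and 8.76 in VTA and 10.69, 10.62 and 10.70 in NAc, 3.28-fold lower (limma adjusted p = 1.10e-09). The AMPA receptor subunit Gria2 was 2.60-fold lower, and the postsynaptic scaffold Dlg3 differed by -1.12. Gria4 was 2.12-fold and the kainate receptor subunit Grik1 2.17-fold higher in VTA, so that subunits of one family lay on opposite sides. Grm8 differed by 0.96, and by 0.62 without NAc pool 1. With median scaling 9 members were lower and 3 higher.

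Of 19 measured GABA and glycine receptor genes, 4 were higher and 4 lower, with a median of 0.048. Calls made up 42.1% of this list, against 29.4% of all genes. Gabrd, the delta subunit of extrasynaptic GABA-A receptors, measured 8.20, 7.21 and 7.20 in VTA and 11.36, 11.05 and 11.26 in NAc, at least 11.2-fold lower (limma adjusted p = 2.20e-07). Gabra2 was 2.92-fold lower. The glycine receptor subunits Glrb (0.92) and Glra1 (0.88) were higher in VTA. Gphn, the gephyrin scaffold, was -0.43 by its brightest probe and 0.82 by another called probe, so its direction depended on the probe, and its call was lost with median scaling (limma adjusted p = 0.836). With that scaling 4 members were higher and 2 lower, with a median of 0.14.

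Potassium channel genes were lower in VTA for 19 of 54 measured members and higher for 8, with a median of -0.15. Over all genes 13.1% were lower and 16.3% higher in VTA. Kcnh3, an Elk-type channel of the forebrain, measured 7.10, 7.16 and 7.19 in VTA and 9.83, 9.78 and 9.93 in NAc, at least 5.03-fold lower (limma adjusted p = 1.54e-16). Kcnf1, a silent subunit that modifies Kv2 channels, measured 9.74, 9.49 and 9.63 in VTA and 11.75, 11.97 and 12.09 in NAc, 4.99-fold lower. Kcnh1 (5.92-fold), Kcnab1 (5.08-fold) and Kcnj4 (at least 3.34-fold) were also lower. Kcng4, another silent subunit, was at least 5.50-fold higher in VTA, Kcnab3 differed by 1.28, and Kcnc4 by 1.49, or 0.97 without NAc pool 1. Kcnq3, an M-current subunit, differed by -0.33, and its call was lost without VTA pool 2 or 3 and without NAc pool 1 or 3 (highest limma adjusted p = 0.209).

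Among 30 measured sodium, calcium and HCN channel genes, 12 were lower and 5 higher in VTA, with a median of -0.18. The shares over all genes were 13.1% lower and 16.3% higher. The calcium channel subunit Cacna2d3 was 3.47-fold lower. The T-type calcium channel Cacna1g (3.16-fold), the sodium channel Scn1a (2.34-fold) and the pacemaker channels Hcn2 (2.02-fold) and Hcn3 (1.02 on the log2 scale) were higher. With median scaling the number of lower members was 3 and that of higher members 5.

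Synapse organizers and guidance cues were higher for 10 and lower for 8 of 39 measured members, with a median of 0.047. Calls made up 46.2% of this list, against 29.4% of all genes. C1ql2, a secreted C1q-like synapse organizer, measured 11.42, 11.87 and 12.35 in VTA and 7.63, 7.80 and 7.26 in NAc, at least 18.3-fold higher (limma adjusted p = 5.52e-10). Its relative Cbln1, cerebellin 1, was 14.5-fold higher. Plxnd1 (-2.10), a semaphorin receptor, Slit3 (-2.07) and Lrrtm3 (-1.37) were lower. Genes of large axons and neurofilaments were higher for 9 and lower for 5 of 22, with a median of 0.075. Nefh, the heavy neurofilament, was 6.85-fold and Vamp1 5.81-fold higher in VTA, while Cplx2 (-1.90), Syt5 (-1.38) and Sv2b (-1.08), all genes of vesicle release, were lower. With median scaling the counts were 10 higher and 5 lower for the synapse list, with a median of 0.21, and 10 higher and 3 lower for the axon list, with a median of 0.18.

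Further genes among the 15 largest differences towards NAc belong to no list above. Gda, guanine deaminase, measured 8.79, 8.53 and 8.78 in VTA and 12.71, 12.67 and 12.81 in NAc, 16.3-fold lower (limma adjusted p = 6.36e-17). Car12, a carbonic anhydrase, was 14.6-fold lower. Ptk2b, a calcium-activated tyrosine kinase, was at least 10.9-fold lower by its brightest probe, and its second probe gave 0.08 and was not called.

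Glial markers also differed between the structures. Oligodendrocyte genes were higher in VTA for 19 of 21 measured members and lower for 0, with a median of 1.01, and their mean level was 12.37 to 12.54 in VTA pools and 11.34 to 11.53 in NAc pools. Trf, transferrin, measured 13.64, 13.91 and 13.53 in VTA and 12.05, 12.18 and 11.92 in NAc, 3.13-fold higher (limma adjusted p = 4.20e-10). Fa2h, a myelin lipid enzyme, was 2.81-fold, the myelin protein gene Mobp 2.43-fold and Mog 2.19-fold higher. Mbp, the myelin basic protein, differed by only 0.22 by its brightest probe, which sat near the top of the scale at 16.10 to 16.12 in VTA and 15.84 to 15.92 in NAc. The call of that probe was lost without NAc pool 1 (limma adjusted p = 0.0636). Its dimmer probes gave -0.68, 1.02 and 0.73, all called.

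Astrocyte genes were higher in VTA for 14 and lower for 2 of 17 measured members, with a median of 0.51. Agt, angiotensinogen, measured 10.65, 10.57 and 10.40 in VTA and 7.33, 8.24 and 7.46 in NAc, at least 6.52-fold higher (limma adjusted p = 9.36e-13). Gfap, the astrocyte intermediate filament, was 4.19-fold and the sodium pump subunit Atp1b2 2.86-fold higher. The 2 lower members were Slc1a3, the glutamate transporter GLAST, and Mfge8. Slc1a3 measured 13.22, 13.15 and 13.12 in VTA and 14.27, 14.23 and 14.24 in NAc, 2.12-fold lower, and Mfge8, which binds phosphatidylserine, was 3.07-fold lower. Thus astrocyte genes lay on both sides with non-overlapping pools.

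Microglia genes were lower in VTA for 7 of 12 measured members and higher for 0, with a median of -0.32. Fcrls measured 10.29, 10.32 and 10.32 in VTA and 11.27, 11.12 and 11.22 in NAc, and the fractalkine receptor Cx3cr1 was 1.56-fold lower. With median scaling the median was -0.066 and 0 members were called, with limma adjusted p = 0.103 for Fcrls and 0.406 for Cx3cr1. Of 13 endothelial and mural markers 3 were higher, Acta2 (1.44), Slc2a1 (0.56) and Rgs5 (0.36), and the list median was 0.21. Calls made up 23.1% of these markers, against 29.4% of all genes. Rgs5 was 0.23 without NAc pool 3 (limma adjusted p = 0.156) and was not called without VTA pool 2 (0.0922) either. Of 8 choroid plexus and ependymal markers 1 was higher and 2, Clic6 (-1.72) and Kl (-0.53), were lower, with a median of 0.18. The share called in this list was 37.5%. Of 8 blood markers 1 was higher, Hbb-bt (0.81), a share of 12.5% against 16.3% of all genes. The median was 0.24, or 0.47 with median scaling. Hbb-bt was 0.48 without VTA pool 1 (limma adjusted p = 0.214), and it was not called without NAc pool 2 (0.0511) or NAc pool 3 (0.176) either. The parts of myelinated tissue, vessels and blood in the neuronal differences were not tested.

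Pools of one structure were close for most genes and far apart for a few. The range over the 3 pools had a median of 0.15 in VTA and 0.25 in NAc among genes above background, and it exceeded 1 for 25 of 10022 genes in VTA and for 74 of 9299 in NAc. The genes with the widest ranges, chosen by that range, fell into small sets. VTA pool 1 was high in Prkcd (11.03 against 8.86 and 8.65), Shox2 (10.41 against 8.75 and 8.82) and Synpo2 (9.46 against 7.64 and 7.87). VTA pool 2 was low in Ttr, the transthyretin of choroid plexus, at 9.08 against 11.48 and 10.95. Ttr was called with a difference of 1.94 (limma adjusted p = 0.00858) although the structures overlapped, and it lost its call without VTA pool 1 (0.0847), VTA pool 3 (0.0508) or NAc pool 3 (0.0686). In NAc, pool 1 was low in Slc17a7, Nrn1, Neurod2 (8.58 against 10.28 and 10.33) and Cck (10.46 against 11.91 and 12.42).

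**Figure D4:**
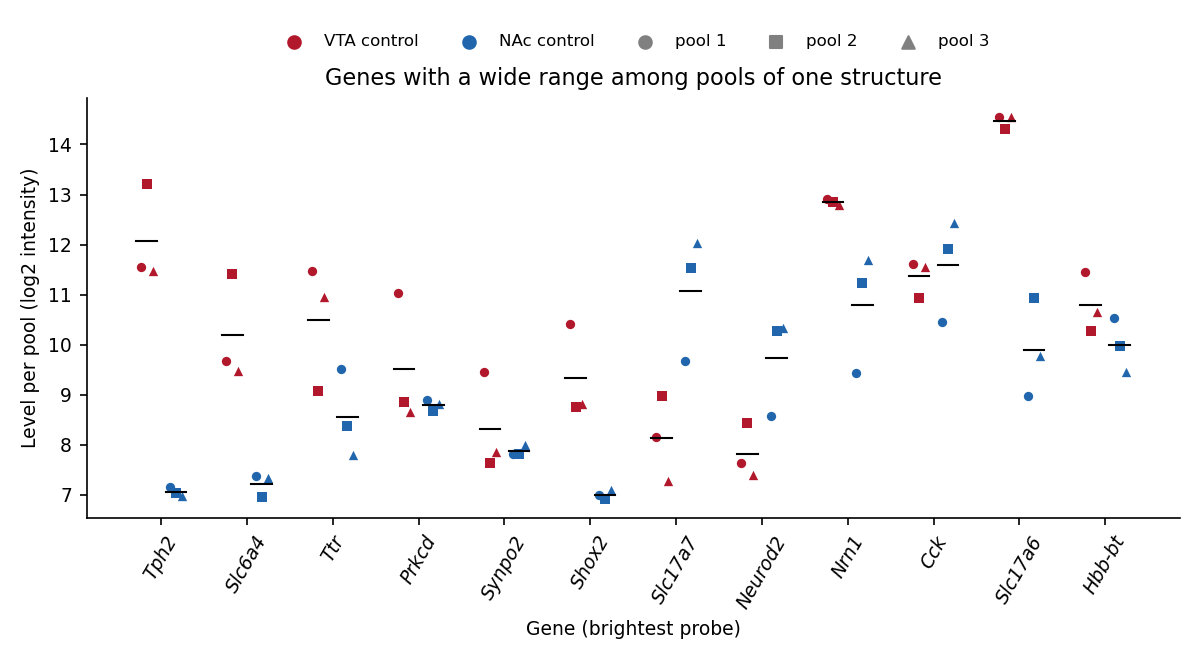
Level per pool (log2 intensity) of genes with a wide range among pools of one structure, for 3 VTA control pools (red) and 3 NAc control pools (blue), with the mean as a bar and the pool number as the marker shape. VTA pool 2 is high in Tph2 and Slc6a4, VTA pool 1 in Prkcd, Synpo2 and Shox2, and NAc pool 1 is low in Slc17a7, Neurod2, Nrn1 and Cck.

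The same regional difference was measured in the defeated mice, whose pools are different from the control pools. In susceptible pools 8260 probes (18.6%) were called and in unsusceptible pools 7221 (16.2%). Pool 3 of the unsusceptible NAc stood apart in brightness, its upper quartile being 833.2 and its median 253.1 intensity units, and 6387 probes were called in unsusceptible pools without it. With median scaling 20.8% of the calls in unsusceptible pools were higher in VTA, against 50.7% here. Of the 5080 genes called in controls, 3920 (77.2%) were called with the same sign in susceptible pools and 3359 (66.1%) in unsusceptible pools, and 3221 (63.4%) in both, against 28.1% and 25.2% of all genes called in either direction in those classes. Their signs were the same in 97.4% and 94.9% of cases. The comparisons in controls and in both classes shared the model's estimate of spread for each probe, so their calls are not independent. The 15 largest differences each way in controls, 30 genes in all, were called with the same sign in both classes. Over probes above background the differences of the control pools correlated with those of the susceptible pools at 0.945 and with those of the unsusceptible pools at 0.905, as a description over probes that share arrays.

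Slc6a3 differed by 6.76 in susceptible and 5.44 in unsusceptible pools, and Th by 4.62 and 3.44. VTA unsusceptible pool 3 was low in dopamine genes, with Slc6a3 at 11.13 against 13.58 and 14.31 and Th at 9.52 against 11.97 and 13.00. Without that pool the unsusceptible differences were 6.38 for Slc6a3 and 4.43 for Th. Crym differed by -6.53 and -6.68 and Drd1 by -4.85 and -4.74 in the 2 classes, and without that pool the unsusceptible values were -6.80 and -4.90. Tph2 differed by 3.55 and 2.90, or 4.47 without that pool.

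**Figure D5:**
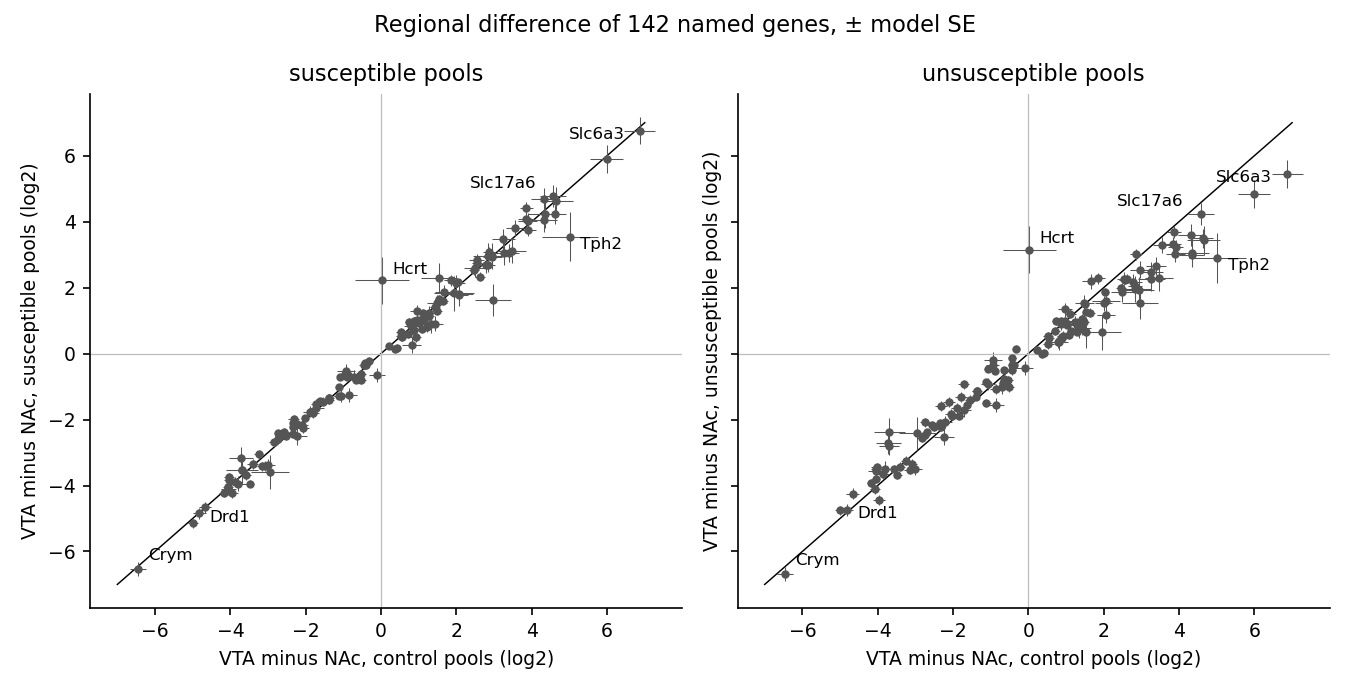
VTA minus NAc difference (log2, ± model standard error) of 142 named genes in control pools (horizontal) against susceptible pools (left) and unsusceptible pools (right), with equality as a line. Most genes lie near the line, Tph2 lies below it in both panels, and Hcrt lies above it at 2.22 and 3.15.

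Whether the regional difference itself differed between defeated and control mice was tested as an interaction. By limma 0 of 44505 probes (0%) were called for the defeated pools of both classes together against controls, with 4174 at an unadjusted p under 0.05. The count was 4 with median scaling, 73 with the replicate number as a block and 85 without NAc control pool 2, so the 0 depended on the fit. For susceptible against control pools 0 were called with 2825 at that level, or 7 with the block. For unsusceptible against control pools 0 were called with 4698 at that level, or 60 without NAc control pool 2, 8 with median scaling and 2 with the block. The 12 genes of smallest p included Osbpl8, a lipid transfer protein, which measured 8.77, 8.52 and 8.53 in VTA control and 8.87, 8.55 and 8.63 in NAc control pools and 9.16 to 9.87 in NAc pools of defeated mice. Its interaction was -1.10 ± 0.19 (limma adjusted p = 0.103). Slc1a3 had an interaction of 0.50 ± 0.11 (limma adjusted p = 0.126), with regional differences of -1.08 in control, -0.70 in susceptible and -0.47 in unsusceptible pools. The others were Zbtb33, Dnajc10, Trim35, Cnot1 and Akap7, with interactions from -1.02 to -0.55, and Elf3, Tceal9, Serpinb9e, AI182371 and Ndufa10, with interactions from 0.45 to 0.53. Of these, Akap7, Elf3, Serpinb9e and AI182371 were not above background in either structure of the control pools.

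Hcrt, the orexin peptide of the lateral hypothalamus, was near background in control pools, at 7.88, 7.76 and 7.88 in VTA and 8.64, 7.23 and 7.57 in NAc. In defeated mice it measured 8.05, 8.16 and 12.52 in VTA susceptible pools and 9.81, 9.67 and 12.10 in VTA unsusceptible pools, against 7.21 to 7.51 in NAc. Pool 3 was the highest in both classes. The interaction was 2.66 and was not called (limma adjusted p = 0.336).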

How the data were processed

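RNA of each pool was amplified linearly and labelled with biotin, per the labels' protocols. The authors deposited 1 intensity per probe and array on a linear scale, and no label or header names the scanner software or a background step. Only affy, with no version, is named per the submitters' processing notes. A second deposited table of intensity values for the whole series, with 3193 values missing among tested probes, served as an alternative. Its median absolute difference from the values used here was 0.011 on the log2 scale.

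Of 44547 probes, 42 were empty and 44505 were tested. After a log2 step the 18 arrays were quantile normalized (R 4.3.3, limma 3.58.1). limma fitted 1 mean per group to all arrays, with 12 residual degrees of freedom and an intensity trend. Without background subtraction a log2 difference understates the change of dim probes. The platform table named 17274 genes, and 28427 of 28482 single-gene probes had an Entrez identifier in the RefSeq table. Precision is limited by 3 pools per group.

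The comparison and the gene lists were chosen with earlier results of these data known. Named genes were the 15 largest differences each way among called genes above background in the higher structure, up to 4 of smallest p among called members of each list with up to 3 against its majority, these without a background filter, the 6 of smallest p each way in the interaction, and a set of markers. Further list members were named after their values were seen, mostly for their roles. The main fit did not pair the structures by pool number. Deviations of same-numbered pools from their group means correlated at -0.0059, 0.085 and 0.051, and those of different-numbered pools at -0.097 to 0.037. With 3 pools per structure these values cannot settle whether same-numbered pools were paired. Alternatives were other scalings and background steps, other probes, array weights, a replicate block, fits to 6 arrays and leaving out each control pool. The fit was tested on simulated data. Leaving out pool 3 of either unsusceptible group was added after seeing the data. Social defeat within a structure was not analysed here.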

Additional observations from a re-analysis of the deposited data

How the results depend on the processing

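Of the settings tried for the regional difference in controls, median scaling (5087 probes called) and a test against a difference of 2-fold (474) moved the count of 8643 by over 1.5 times. Leaving out 1 control pool gave 7340 to 8539. In susceptible pools median scaling called 3988 probes and quantile normalization 8260. Leaving out pool 3 of either unsusceptible group kept the counts for unsusceptible pools within 1.5 times and the interactions at 0 calls. Calls in the gene lists numbered 342, and 283 to 350 under the alternatives run for them. With the replicate number as a block 8959 probes were called, or 7768 with the 6 control arrays alone, and none of the 153 named genes lost its side of the threshold or its sign. The interaction with defeat, at 0 calls, had 4 with median scaling, 73 with the replicate block and 0 to 85 with 1 control pool left out, the highest without NAc pool 2. For susceptible against control pools these were 7 with the block and 0 to 1, and for unsusceptible against control pools 8 with median scaling, 2 with the block and 0 to 60, again highest without NAc pool 2. The cause was not tested. Taking the probe of highest spread turned the sign of Gphn (0.82), Ndufa10 (0.29) and Trim35 (-0.52). Of the 153 named genes, 16 lost their call with median scaling, 13 with background subtraction and 65 in the test against 2-fold, and 4 to 8 with 1 pool left out. Of the 5080 called genes, 820 were not above background in the lower structure, so that signal over background limits the size of their differences. For 202 of these 820 genes neither structure was above background.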
